A study of Mus musculus with 12 samples.

Results

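Ion channel genes were followed through 4 stages of the mouse basophil lineage in bulk RNA sequencing of sorted cells. The channels were taken by gene symbol, as the pore-forming and auxiliary potassium channel genes (Kcn), the transient receptor potential genes (Trpc, Trpm and Trpv), the store-operated entry genes (Orai and Stim), the ATP-gated P2X receptors (P2rx), the chloride channels and exchangers (Clcn), the voltage-gated calcium (Cacn) and sodium (Scn) channels and the inositol trisphosphate (IP3) receptors (Itpr). Of 32227 genes in the table, 147 carried such a symbol, and the members were selected on their total counts, with at least 30 counts summed over the 12 libraries. This left 77 genes. Members just inside the limit included Kcna6 (30 counts), Kcnh3 (33) and Cacna1b (34), and just outside it were Cacna2d3 (29) and Cacna2d1, Kcnk3 and Scn9a (28 each). The symbols also brought in 2 genes that encode no channel, the noncoding RNA Kcnq1ot1 and the TRPC4-associated protein gene Trpc4ap.

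The cells came from wild-type C57BL/6J mice without stimulation, and each of the 4 groups had 3 libraries. Basophil progenitors (BaPs; CD34+, CLEC12A-high), pre-basophils (CD34-, CLEC12A-high, CD9-low; titled immature basophils in the sample labels) and BM mature basophils (CD34-, CLEC12A-low, CD9-high) were sorted from the bone marrow (BM), and mature spleen basophils from the spleen, all as CD200R3+ c-Kit- cells. The age and sex of the animals are not given in the sources used here. Cells of several animals were pooled for each library, and replicates therefore vary as pools do, which may be partly technical.

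Basophils are granulocytes that degranulate when antigen crosslinks IgE on their surface. Receptor crosslinking leads to IP3 production, IP3 receptors release calcium from the endoplasmic reticulum, STIM proteins sense the emptied store, and ORAI channels in the plasma membrane then admit calcium. Potassium channels keep the membrane potential negative, which favours calcium entry, whereas calcium-activated cation channels of the TRPM type depolarise it.

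The promoters of members with the largest called changes are shown here, because the same genes recur in the results below. They are the 6 members with the largest called change that had a RefSeq entry (GRCm38.p6) whose start lay within 1000 bases of the annotated gene start. Kcnj2 was lower in BaPs than in the other groups. P2rx1 and Kcnq5 had lower levels at earlier stages, and Kcne3, Kcna3 and Kcnn4 had higher levels there. Each promoter window runs from 250 bases before to 50 bases after the RefSeq start, 5′ to 3′ on the gene's strand. The RefSeq start of Kcnq5 lay 708 bases from the annotated gene start, and its window does not cover that annotated start. Capitals mark matches, on either strand, to 5 motifs. GATA factor motifs were searched as AGATAA and, in a further form of the same motif, as TGATAA. The RUNX motif was searched as TGTGGT, the STAT motif as TTCNNNGAA, the NFAT motif as TGGAAA and the E-box as CACGTG, and matches of different motifs could overlap. The windows are chr11:111065914-111066213 for Kcnj2, chr7:100176420-100176719 for Kcne3, chr3:107035912-107036211 for Kcna3, chr7:24370013-24370312 for Kcnn4 and chr11:72998895-72999194 for P2rx1, all on the plus strand, and chr1:21962601-21962900 on the minus strand for Kcnq5.
Kcnj2: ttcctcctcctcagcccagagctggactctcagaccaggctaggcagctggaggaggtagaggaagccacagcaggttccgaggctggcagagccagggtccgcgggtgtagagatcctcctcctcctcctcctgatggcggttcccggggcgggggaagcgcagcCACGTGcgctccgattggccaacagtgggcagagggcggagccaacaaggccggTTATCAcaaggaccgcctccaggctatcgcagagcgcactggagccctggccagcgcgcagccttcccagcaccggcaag
Kcne3: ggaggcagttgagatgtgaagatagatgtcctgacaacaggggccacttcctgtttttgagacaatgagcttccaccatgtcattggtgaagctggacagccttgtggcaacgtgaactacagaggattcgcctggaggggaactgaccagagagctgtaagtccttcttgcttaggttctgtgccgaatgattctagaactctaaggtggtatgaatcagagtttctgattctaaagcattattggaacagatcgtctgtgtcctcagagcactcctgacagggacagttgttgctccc
Kcna3: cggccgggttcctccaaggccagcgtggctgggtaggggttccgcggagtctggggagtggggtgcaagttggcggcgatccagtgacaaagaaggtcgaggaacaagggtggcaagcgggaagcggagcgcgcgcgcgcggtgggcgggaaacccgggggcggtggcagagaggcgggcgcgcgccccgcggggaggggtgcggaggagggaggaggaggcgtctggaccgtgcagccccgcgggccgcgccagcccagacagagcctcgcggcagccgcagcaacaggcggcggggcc
Kcnn4: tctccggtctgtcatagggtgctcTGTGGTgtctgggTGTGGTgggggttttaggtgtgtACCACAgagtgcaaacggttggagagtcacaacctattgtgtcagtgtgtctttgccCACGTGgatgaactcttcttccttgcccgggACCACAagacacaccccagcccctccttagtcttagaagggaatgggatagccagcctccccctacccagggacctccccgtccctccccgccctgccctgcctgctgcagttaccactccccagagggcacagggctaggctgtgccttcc
P2rx1: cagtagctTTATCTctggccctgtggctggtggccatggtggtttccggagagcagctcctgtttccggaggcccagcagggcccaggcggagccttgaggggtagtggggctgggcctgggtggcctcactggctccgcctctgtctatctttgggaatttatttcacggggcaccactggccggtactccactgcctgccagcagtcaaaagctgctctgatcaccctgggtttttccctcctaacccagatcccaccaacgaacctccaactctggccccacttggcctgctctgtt
Kcnq5: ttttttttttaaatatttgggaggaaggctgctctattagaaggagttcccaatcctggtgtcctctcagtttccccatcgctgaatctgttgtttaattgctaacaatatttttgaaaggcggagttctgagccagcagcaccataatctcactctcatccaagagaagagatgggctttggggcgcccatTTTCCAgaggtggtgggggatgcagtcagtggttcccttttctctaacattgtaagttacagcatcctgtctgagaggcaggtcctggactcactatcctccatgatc

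The Kcnn4 window held 4 RUNX matches and 1 E-box. Of all 32851 promoter windows in the table, 15 (0.0457%) held at least 4 RUNX matches, while 16.8% held at least 1. The Kcnj2 window held 1 GATA match and 1 E-box, the P2rx1 window 1 GATA match and the Kcnq5 window 1 NFAT match. A GATA match occurred in 18.6% of all windows, an E-box in 7.15%, an NFAT match in 21.4% and a STAT match in 8.30%. Over the 86 windows of the 61 member symbols with an entry, the shares were 9.30% for GATA, 14.0% for RUNX, 10.5% for STAT, 16.3% for NFAT and 11.6% for the E-box. Kcna3 and Kcne3 had no match, and their base composition lay far apart, with 75% GC and 37 CpG pairs in the Kcna3 window and 48.3% GC and 4 CpG pairs in the Kcne3 window. The median window held 7 CpG pairs over all promoters and 12.5 over the members. Trpm4 had no entry.

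Library totals lay between 3596108 and 8151030 counts, and levels are given in CPM, in which every library is brought to one depth, with library sizes corrected by trimmed means of M values (TMM). A count of 0 allows up to 3 counts, or 0.290 to 0.955 CPM depending on the library, and such limits cover counting error only. All 8 basophil markers had counts in every group, with a summed level of 25389 to 68462 CPM in BaPs, 61730 to 71275 in pre-basophils, 12928 to 15872 in mature BM and 7091 to 7913 in mature spleen basophils. Of 5 mast cell markers, 3 were in the table, and their sum was at most 5.62 CPM. BaP replicate 3 stood apart, with a basophil marker sum of 25389 CPM against 63080 and 68462 in the other BaP libraries, a T and NK cell marker sum (7 genes, all detected) of 522 against 16.0 and 18.4, an erythroid marker sum (6 genes, all detected) of 938 against 10.3 and 11.1, and a monocyte and macrophage marker sum (5 genes, all detected) of 301 against 33.0 and 37.0. BaP values of the members called in a pairwise comparison are therefore given per library. Without this library Itpr2 and Stim1 gained a call in BaPs against pre-basophils, and no named member lost one.

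The members together made up 1351 ± 38.5 CPM in BaPs, 1645 ± 15.8 in pre-basophils, 1928 ± 96.9 in mature BM and 1999 ± 91.0 in mature spleen basophils (mean ± SD, n = 3 here and throughout). The summed level was higher in each group of mature basophils than in pre-basophils, and higher there than in BaPs, with no overlap of the libraries between these 3 levels. BM and mature spleen basophils overlapped. With unscaled library sizes the same sums were 1587, 1679, 1691 and 1913 CPM, so the steps between the BM groups depended on the scaling. The sums include Kcnq1ot1 and Trpc4ap, which encode no channel. With TMM these genes held 216 ± 53.9, 209 ± 17.0, 261 ± 11.8 and 382 ± 51.5 CPM from BaPs to mature spleen basophils. The set was uneven, since 12 of the 77 genes held 69.0% of its 112093 counts. Genes were compared per kilobase of exon, which assumes that reads spread evenly along the exons of each gene. That was not checked here, and the order and ranks below rest on it. By this measure P2rx1 stood highest with 38.1 CPM per kb over all libraries, followed by Orai1 with 29.3 and Orai2 with 27.8. In both mature groups Orai2 had a higher mean than Orai1, at 36.3 ± 6.85 against 34.4 ± 3.69 CPM per kb in BM mature basophils, within their spread, and 33.0 ± 1.90 against 25.1 ± 0.218 in mature spleen basophils. In BaPs the order was Orai1, P2rx1, Kcnab2 and Orai2, and Orai1 at 23.5 ± 3.72 CPM per kb did not differ from P2rx1 at 21.3 ± 4.40 beyond their spread. Kcnj2 ranked 18 in BaPs and 4 in BM mature basophils, whereas Kcna3 ranked 5 in BaPs and 20 in mature spleen basophils.

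A count filter left 48 members to test, with totals from 95 to 12442 counts, and 29 members with totals from 30 to 121 counts were not tested. A member is called where its Benjamini-Hochberg adjusted p over the 15083 genes tested was under 0.05 in edgeR's quasi-likelihood test. The F test over the 4 groups called 23 of the 48 tested members (47.9%), against 57.8% of all genes, and 17 members were called in at least 1 pairwise comparison. Between pre-basophils and BM mature basophils, 12 members (25%) were called, against 27.3% of all genes. Of these 4 were higher in pre-basophils, against 16.3% of all genes, and 8 were lower, against 11%. The 8 lower members include Trpc4ap, which encodes no channel. The median log2 fold change of the tested members was -0.30, against -0.00 over all genes. In BaPs against pre-basophils 6 members (12.5%) were called, against 7.08% of all genes. None was higher in BaPs, against 2.79% of all genes. DESeq2 and limma-voom also called none higher, at an unadjusted p under 0.05 there were 10 members in either direction, and without the count filter 4 members were called higher and 7 lower. The 6 lower members compare with 4.29% of all genes, and the median was -0.12 against 0.02. In spleen mature against BM mature basophils 3 members (6.25%) were called, against 7.83% of all genes. Of these 1 was higher, the noncoding RNA Kcnq1ot1 (all genes 3.16%), and 2 were lower (all genes 4.67%). With unscaled library sizes 2 were higher and 0 lower, 1 of them called with TMM as well, and with TMM the median was 0.06 against 0.01. The first 2 comparisons share the pre-basophil libraries, and the first and the last share the BM mature libraries.

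**Figure D1:**
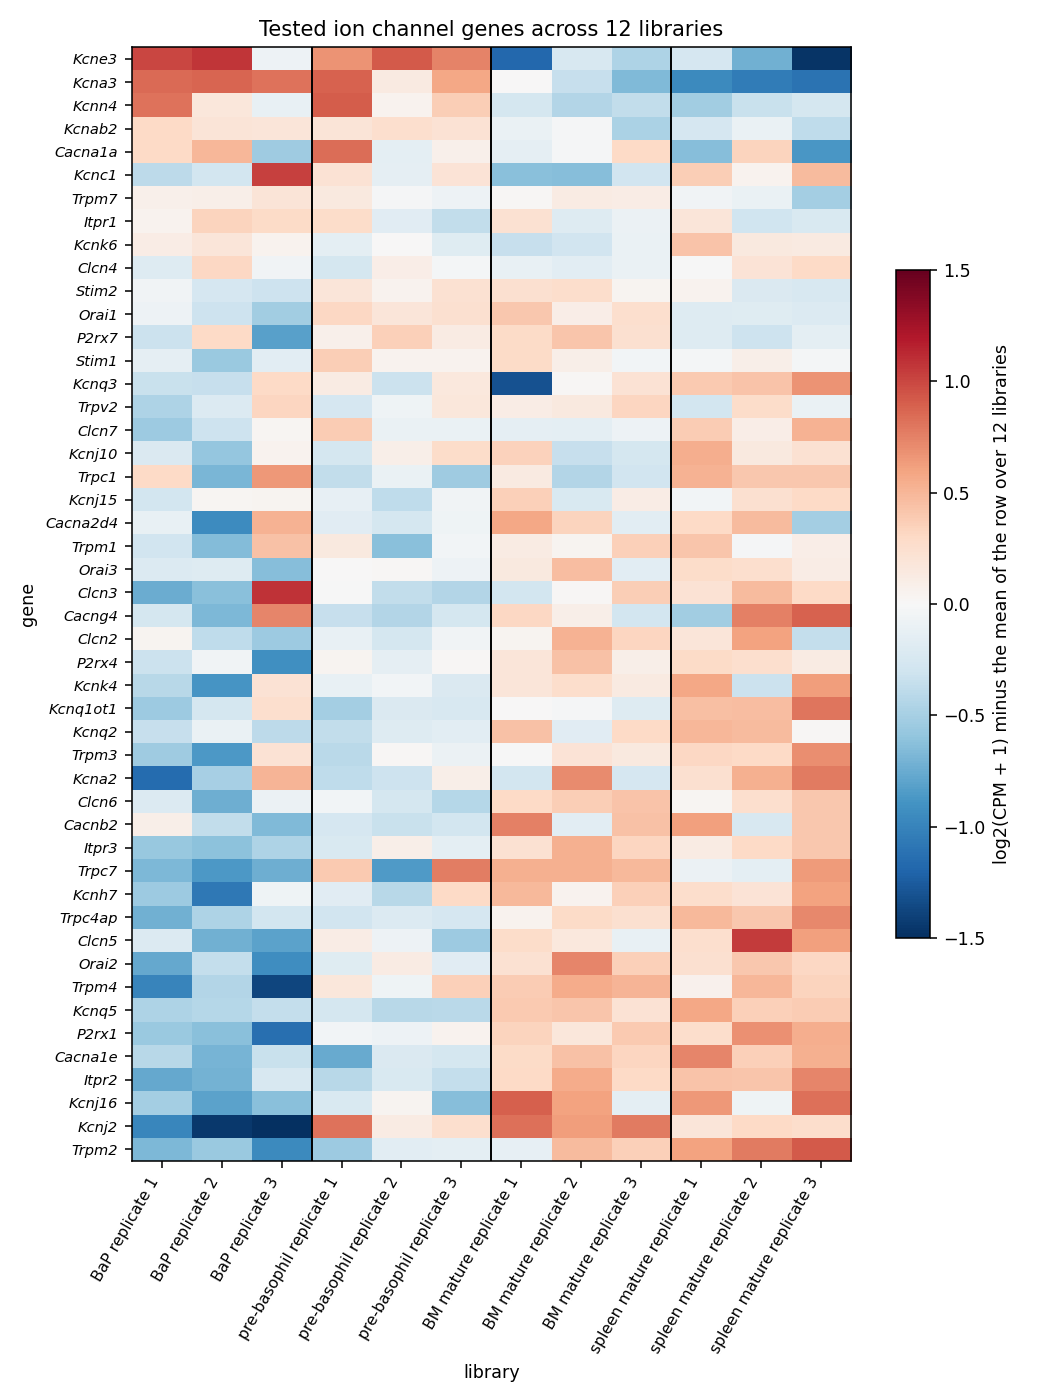
Heat map of the 48 tested members (rows) in the 12 libraries (columns, in 4 groups of 3), coloured by log2(CPM + 1) minus the mean of the row, with rows ordered by the difference between the 6 CLEC12A-high and the 6 mature libraries. Kcne3, Kcna3, Kcnn4 and Kcnab2 lie at the top with higher levels in BaPs and pre-basophils. Trpm2, Kcnj16 and Itpr2 lie at the bottom with lower mean levels there, together with Kcnj2. Kcnj2 was low in BaPs only, and its pre-basophil libraries overlapped both mature groups.

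Other RNA moved with the same comparisons. All 9 neutrophil markers were detected in every group, with sums of 1965 to 2477 CPM for BaPs and 1003 to 2359 for pre-basophils, against 91.4 to 127 in mature BM and 60.6 to 69.6 in mature spleen basophils. The sum of 9 dissociation stress genes, all detected, was 16408 to 23588 CPM in BaPs, 33593 to 37081 in pre-basophils, 72071 to 86978 in mature BM and 90764 to 107689 in mature spleen basophils. Monocyte and macrophage markers had 33.0, 37.0 and 301 CPM in the BaP libraries, 73.0 to 101.03 in pre-basophils, 195 to 239.6 in mature BM and 197 to 229 in mature spleen basophils. Megakaryocyte and platelet markers (5 genes, all detected) went from 408 to 452 CPM in BaPs, 507 to 592 in pre-basophils and 574 to 649 in mature BM to 671 to 1007 in mature spleen basophils. Erythroid markers had 18.9 to 21.4 CPM in pre-basophils, 69.8 to 90.7 in mature BM, where Epor was at 0, and 21.9 to 101.14 in mature spleen basophils, where Klf1 was at 0. Spleen libraries had a B cell marker sum (6 genes, all detected) of 99.2 to 158 CPM, against 27.7 to 66.7 in the BM libraries. Their part in the results was not tested. In such bulk samples, fewer cells of a type and less RNA per cell cannot be told apart. With unscaled library sizes, the median over all genes shifted to 0.22 on the log2 scale between pre-basophils and mature BM basophils, 0.23 between BaPs and pre-basophils and 0.14 between the spleen and mature BM basophils, each as the first minus the second. All calls of the first comparison were then 82.5% higher in pre-basophils, against 59.8% with TMM, and the members split into 4 higher and 1 lower.

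The IP3 receptor genes Itpr1, Itpr2 and Itpr3 encode the channels that release calcium from the endoplasmic reticulum. Of these 3 genes, 2 were called lower in pre-basophils than in BM mature basophils, against 11% of all genes. Itpr2 (GRCm38 chromosome 6, 146108299 to 146502223) had 55.9, 58.2 and 80.9 CPM in BaPs, then 71.6, 81.8 and 75.0 in pre-basophils, 118, 142 and 118 in mature BM and 130, 129 and 160 in mature spleen basophils. Every CLEC12A-high library lay below every mature library. Pre-basophils fell by 0.73 on the log2 scale below BM mature basophils (SE 0.15, edgeR adjusted p 0.00311), and the call held without each of the 6 libraries in turn, but not with unscaled library sizes (0.0611). BaPs relative to pre-basophils had -0.22 for Itpr2, with an edgeR adjusted p of 0.439 over all libraries and 0.0496 without BaP replicate 3. Itpr3 (chromosome 17, 27057304 to 27122223) had 65.5, 63.7 and 70.9 CPM in BaPs, then 83.3, 104 and 88.3 in pre-basophils, 115, 141 and 123 in mature BM and 107, 121 and 130 in mature spleen basophils. It was called at both steps, with -0.46 (SE 0.13) on the log2 scale for pre-basophils relative to mature BM basophils (edgeR adjusted p 0.0146) and -0.46 (SE 0.13) for BaPs relative to pre-basophils (0.0445). These groups did not overlap at either step. The first call was lost without pre-basophil replicate 1 (0.0735) or 3 (0.0571), without BM mature replicate 2 (0.0819) and with unscaled library sizes (0.277). Of the 6 fits that left out a BaP or pre-basophil library, the Itpr3 call of BaPs held only without BaP replicate 3 (0.0189), and the other 5 gave 0.0734 to 0.194. It was also lost with unscaled library sizes (0.309) and in a fit of these 2 groups alone (0.107). Itpr1 had 25.8 ± 2.72, 20.8 ± 5.14, 21.7 ± 3.57 and 20.3 ± 3.97 CPM from BaPs to mature spleen basophils and was not called in any comparison.

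The store-operated entry genes had their lowest mean levels in BaPs. Orai1 (chromosome 5, 123015074 to 123030456), which encodes the main pore of the calcium release-activated current, had 62.8, 53.0 and 45.8 CPM in BaPs and 82.2, 75.2 and 78.5 in pre-basophils. The BM mature libraries had 87.5, 70.6 and 78.6 CPM and the spleen mature libraries 57.8, 58.1 and 57.1. BaPs lay below pre-basophils (log2 fold change -0.55, SE 0.13, edgeR adjusted p 0.0229), mature spleen basophils lay below BM mature basophils (-0.45, SE 0.13, 0.0485), and pre-basophils and BM mature basophils overlapped (-0.00, SE 0.13, 0.988). Orai1 thus had its highest means in the 2 CD34- groups of the bone marrow. The call of BaPs was lost without pre-basophil replicate 1 (0.0997), 2 (0.0647) or 3 (0.0793), with unscaled library sizes (0.0518) and in a fit of these 2 groups alone (0.0751). The Orai1 call of the spleen was lost without any 1 of the BM and spleen mature libraries (0.0680 to 0.176) and in 4 of 9 alternative fits (0.0512 to 0.0932).

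Orai2 (chromosome 5, 136147459 to 136170713), which encodes a related pore subunit, had 93.9, 125 and 83.8 CPM in BaPs, then 142, 176 and 143 in pre-basophils, 188, 267 and 207 in mature BM and 190, 213 and 199 in mature spleen basophils. The BaP libraries lay below the pre-basophil libraries, which lay below all mature libraries. It was called at both steps, with -0.61 (SE 0.17) on the log2 scale for BaPs relative to pre-basophils (edgeR adjusted p 0.0425) and -0.53 (SE 0.16) for pre-basophils relative to mature BM basophils (0.0290). The Orai2 call of BaPs was lost without BaP replicate 1 (0.0915) or without pre-basophil replicate 1 (0.0924), 2 (0.180) or 3 (0.0927), and that of pre-basophils without pre-basophil replicate 1 (0.118) or 3 (0.102) or without BM mature replicate 2 (0.164). Unscaled library sizes ended both Orai2 calls (0.141 and 0.217), a fit of the 2 groups alone that of BaPs (0.0969) and repeated TMM with a likelihood ratio test that of pre-basophils (0.0664). Orai3, the remaining pore gene, had 16.3 ± 2.92, 20.6 ± 0.816, 23.6 ± 5.27 and 24.4 ± 1.56 CPM from BaPs to mature spleen basophils and passed only the F test over the 4 groups (edgeR adjusted p 0.0433).

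The store sensors moved less. Stim1 had 46.0 ± 7.38 CPM in BaPs, 62.5 ± 8.34 in pre-basophils, 60.5 ± 7.16 in mature BM and 56.0 ± 2.81 in mature spleen basophils, with an adjusted p of 0.0873 for BaPs against pre-basophils (edgeR) that was 0.0445 without BaP replicate 3. Stim2 had 36.1 ± 3.53, 46.5 ± 3.05, 47.4 ± 4.16 and 38.0 ± 4.41 CPM in the same order. It passed the F test (edgeR adjusted p 0.0325) and none of the pairwise tests. Over the 8 genes of release and entry, the summed level was 411 ± 7.01 CPM in BaPs, 550 ± 25.1 in pre-basophils, 705 ± 64.3 in mature BM and 655 ± 22.3 in mature spleen basophils. The F test called 6 of these 8 genes, against 57.8% of all genes.

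Among the TRP channels, Trpm4 and Trpm2 differed between stages and Trpm7 did not pass a test. Trpm4 (chromosome 7, 45302632 to 45333780) encodes a cation channel opened by internal calcium that conducts sodium and potassium but not calcium. It had 26.5, 39.4 and 20.04 CPM in BaPs, then 60.7, 51.1 and 69.2 in pre-basophils, 70.0, 79.4 and 76.6 in mature BM and 56.2, 76.1 and 68.0 in mature spleen basophils. All BaP libraries lay below all others, and pre-basophils were 2.14-fold above BaPs (log2 fold change of BaPs -1.10, SE 0.21, edgeR adjusted p 0.00763). The Trpm4 call held without each BaP or pre-basophil library in turn, with a log2 fold change of -1.40 to -0.87, and was 0.0505 in a fit of these 2 groups alone. Between pre-basophils and BM mature basophils Trpm4 had an adjusted p of 0.273, and of 0.0476 in a fit of those groups alone. Trpm2 (chromosome 10, 77907722 to 77970563) encodes a cation channel gated by ADP-ribose and sensitive to oxidants. Its libraries had 28.7, 31.1 and 23.3 CPM in BaPs, then 31.3, 41.4 and 41.6 in pre-basophils, 42.3, 64.6 and 59.5 in mature BM and 70.6, 80.2 and 88.4 in mature spleen basophils. No 2 neighbouring groups overlapped, and only the difference of pre-basophils from BM mature basophils was called (log2 fold change -0.54, SE 0.18, edgeR adjusted p 0.0349).

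Of the 6 fits with 1 library left out, that call of Trpm2 held only without BM mature replicate 1 (0.0134). It was lost without pre-basophil replicate 1 (0.156), 2 (0.0641) or 3 (0.0544), without BM mature replicate 2 (0.161) or 3 (0.111), with unscaled library sizes (0.207) and with a likelihood ratio test after repeated TMM (0.0778). The spleen difference of Trpm2 had a log2 fold change of 0.52 (SE 0.17) with an edgeR adjusted p of 0.0814, and of 0.0345 with the replicate number as a block, 0.0446 with unscaled library sizes and 0.0236 in a fit of the 2 mature groups alone. Trpm7, which encodes a channel fused to a kinase, had 74.5 ± 3.62, 69.7 ± 5.68, 72.6 ± 2.85 and 59.3 ± 10.1 CPM from BaPs to mature spleen basophils (F test, edgeR adjusted p 0.140). Trpv2 had 17.1 ± 5.21, 17.7 ± 2.79, 21 ± 1.76 and 18 ± 3.83 CPM (0.643). Trpc7, at 0.845 ± 0.126 CPM in BaPs and 2.71 ± 1.82 to 3.46 ± 0.0771 in the BM CD34- groups, passed the F test only (0.0290). These 3.46 CPM stand for few reads, since Trpc7 had 152 counts over all libraries.

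The 3 expressed P2X genes encode cation channels opened by extracellular ATP. P2rx1 (chromosome 11, 72999103 to 73015200) had 64.0, 60.8 and 42.6 CPM in BaPs, then 91.7, 89.3 and 97.6 in pre-basophils, 119, 106 and 124 in mature BM and 113, 153 and 138 in mature spleen basophils. The 3 BM groups were separated from each other without overlap, and BM and mature spleen basophils overlapped. BaPs lay below pre-basophils (log2 fold change -0.74, SE 0.16, edgeR adjusted p 0.0140), whereas the difference between pre-basophils and BM mature basophils had an adjusted p of 0.141 (-0.33, SE 0.16) that was 0.0159 in a fit of these 2 groups alone. The P2rx1 call was lost without pre-basophil replicate 1 (0.0543) or 3 (0.0653) and in a fit of these 2 groups alone (0.0505), and held without each BaP library. P2rx4 (73.9 ± 21.6, 95.6 ± 6.32, 115 ± 15 and 113 ± 6.36 CPM from BaPs to mature spleen basophils) passed only the F test (edgeR adjusted p 0.0236). P2rx7, whose gene lies 16.1 kb from P2rx4 on chromosome 5, had 33.9 ± 13.5, 45.0 ± 4.88, 49.2 ± 3.26 and 33.7 ± 1.99 CPM and did not pass it (0.0698). The BaP libraries spread most for these genes, with 77.4, 93.6 and 50.7 CPM of P2rx4 and 31.3, 48.6 and 22.0 of P2rx7. The spleen libraries of P2rx7, at 31.5 to 35.3 CPM, lay below the BM mature libraries at 46.6 to 52.8, with a log2 fold change of -0.54 (SE 0.21) and an edgeR adjusted p of 0.136 that was 0.0405 without the count filter and 0.00666 in a fit of these 2 groups alone.

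**Figure D2:**
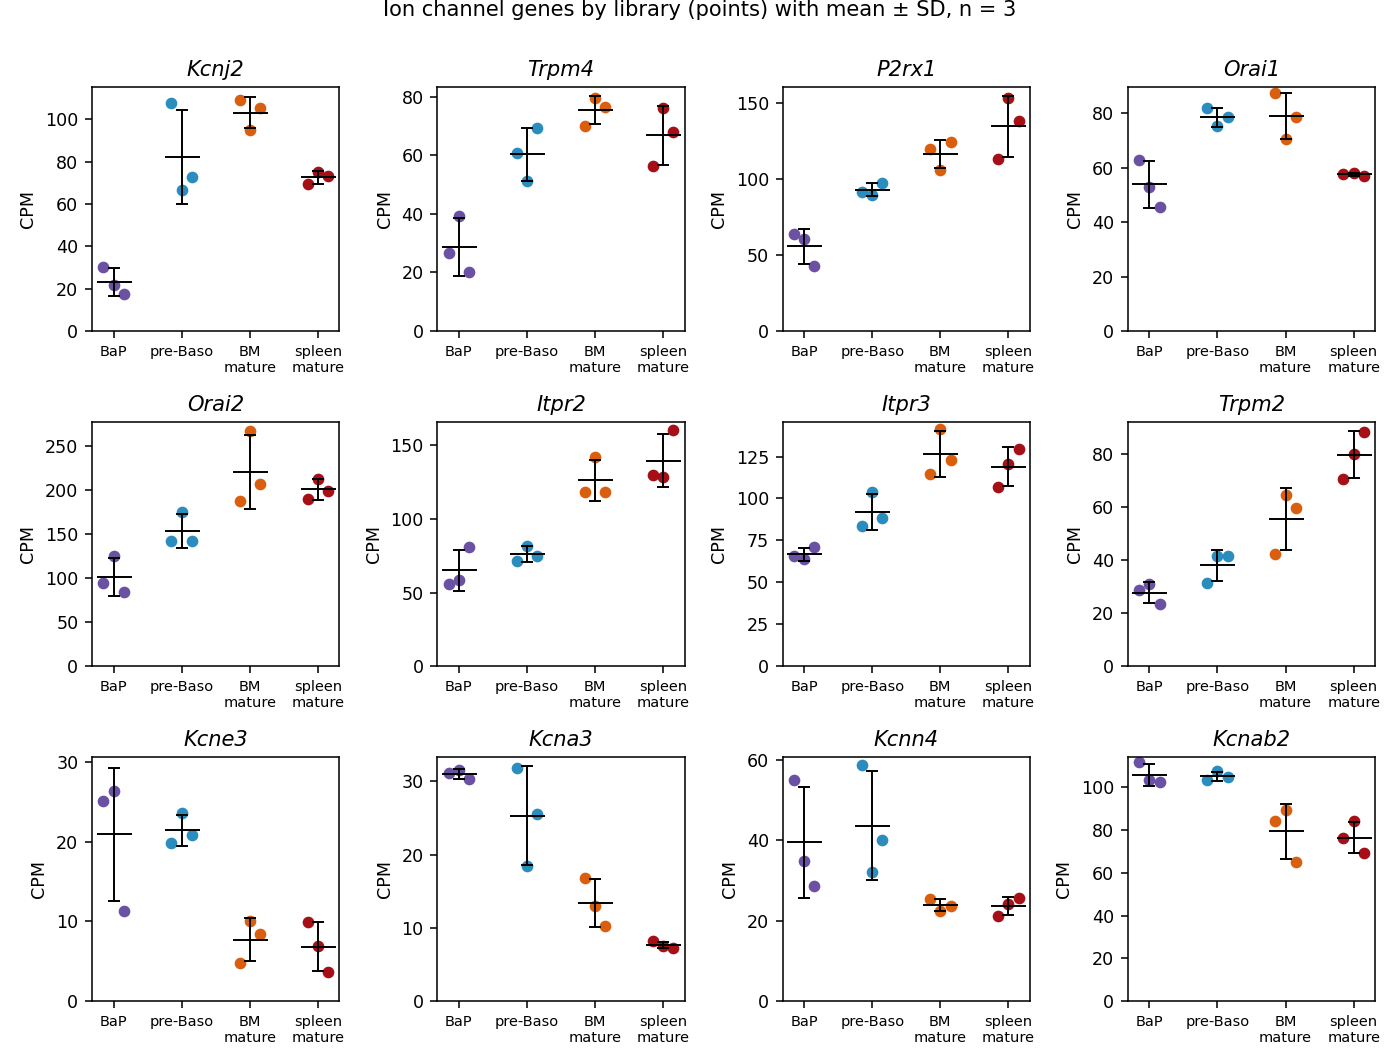
Levels of 12 called members in CPM (y axes, from 0) in the 4 groups (x axes); points are libraries, and the bars give mean ± SD (n = 3). Kcnj2 and Trpm4 have all 3 BaP libraries at 17.3 to 39.4 CPM, below all other libraries, while Kcne3, Kcna3, Kcnn4 and Kcnab2 have all 6 CLEC12A-high libraries above the mature ones.

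Potassium channels gave both the largest decrease and the largest increases. Kcnj2 (chromosome 11, 111066164 to 111076821), whose promoter is printed above, encodes the inward rectifier Kir2.1, which holds the membrane near the potassium equilibrium potential. The BaP libraries had 30.3, 21.7 and 17.3 CPM, the pre-basophil libraries 108, 66.5 and 72.9, the BM mature libraries 109, 94.9 and 105 and the spleen mature libraries 69.3, 75.2 and 73.4. Every BaP library lay below every other library, and the pre-basophil libraries spread across the range of both mature groups. Pre-basophils stood 3.60-fold above BaPs (log2 fold change of BaPs -1.85, SE 0.21, edgeR adjusted p 0.000274). The call held in every alternative fit and without each library, with a log2 fold change of -2.09 to -1.60 and an edgeR adjusted p of at most 0.00168 when 1 library was left out. Spleen mature basophils lay below BM mature basophils without overlap, with a log2 fold change of -0.50 (SE 0.19) and an edgeR adjusted p of 0.125 that was 0.0389 without the count filter and 0.00406 in a fit of these 2 groups alone. Kcnj16, another inward rectifier gene 38.2 kb from Kcnj2, had 1.43 ± 0.247, 2.20 ± 0.742, 4.41 ± 1.83 and 4.44 ± 1.60 CPM from BaPs to mature spleen basophils and passed the F test only (edgeR adjusted p 0.0113). Its difference between pre-basophils and BM mature basophils, with an adjusted p of 0.105, was called at 0.0450 without BM mature replicate 3. Kcnj16 passed the count filter only with the mature groups. It had 27 counts in BaPs and 29 in pre-basophils, against 51 in mature BM and 90 in mature spleen basophils. Its tests thus rest on few reads and give no support for higher mature levels.

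The 4 members that were higher in pre-basophils than in BM mature basophils were all potassium channel genes. Kcne3 (chromosome 7, 100176502 to 100184869) encodes a single-span subunit that modifies the gating of voltage-gated potassium channels. It had 25.1, 26.4 and 11.3 CPM in BaPs, then 19.8, 23.6 and 20.8 in pre-basophils, 4.77, 10.02 and 8.42 in mature BM and 9.92, 6.93 and 3.72 in mature spleen basophils. All 6 CLEC12A-high libraries lay above all 6 mature libraries, and pre-basophils were 2.72-fold above BM mature basophils (log2 fold change 1.44, SE 0.38, edgeR adjusted p 0.0112). Without BM mature replicate 1, the lowest of its group, the adjusted p of Kcne3 was 0.0543. Kcnq1, a partner of KCNE3 in epithelia, was not among the members.

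Kcna3 (chromosome 3, 107036169 to 107038070), which encodes the voltage-gated channel Kv1.3 known from lymphocytes, had 31.1, 31.6 and 30.3 CPM in BaPs, then 31.9, 18.5 and 25.6 in pre-basophils, 16.9, 13.0 and 10.3 in mature BM and 8.16, 7.59 and 7.30 in mature spleen basophils. BaPs and pre-basophils overlapped, and each later group lay below the one before. Pre-basophils were 1.91-fold above BM mature basophils (log2 fold change 0.94, SE 0.21, edgeR adjusted p 0.00459), a call that held in every alternative fit and without each library. Spleen mature basophils were below BM mature basophils (-0.78, SE 0.22, 0.0467). This second call of Kcna3 held only without BM mature replicate 3 (0.0450), was 0.0814 to 0.176 without any other library of these groups, and was lost with unscaled library sizes (0.0901) and in limma-voom (0.0890).

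Kcnn4 (chromosome 7, 24370263 to 24386690) encodes the calcium-activated potassium channel KCa3.1, which repolarises cells during calcium entry. Its libraries had 54.9, 34.9 and 28.6 CPM in BaPs, then 58.7, 32.1 and 40.1 in pre-basophils, 25.5, 22.5 and 23.6 in mature BM and 21.1, 24.3 and 25.6 in mature spleen basophils. The early groups spread widely but did not overlap the mature groups (pre-basophils against BM mature basophils, log2 fold change 0.87, SE 0.24, edgeR adjusted p 0.0175). The Kcnn4 call was lost without pre-basophil replicate 1 (0.109) or BM mature replicate 2 (0.0626) or 3 (0.0569). Kcnab2 (chromosome 4, 152390742 to 152477871), which encodes the cytoplasmic beta subunit of Kv1 channels, had 112, 103 and 102 CPM in BaPs and 103, 107 and 105 in pre-basophils, against 84.0, 89.4 and 65.0 in mature BM and 76.0, 84.0 and 69.3 in mature spleen basophils. Its groups were equally separated, with a smaller change (log2 fold change 0.41, SE 0.13, edgeR adjusted p 0.0310). The Kcnab2 call held only without BM mature replicate 2 (0.0243) and was 0.0580 to 0.140 without any other library of these groups, and it was 0.0555 with upper-quartile scaling and 0.0568 without the count filter.

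In the opposite direction, Kcnq5 (chromosome 1, 21398403 to 21961942), which encodes a voltage-gated channel of the M-current family, had 19.3, 19.8 and 20.9 CPM in BaPs, then 22.4, 19.96 and 20.2 in pre-basophils, 36.0, 36.3 and 31.6 in mature BM and 40.8, 35.0 and 35.5 in mature spleen basophils. The 6 early libraries spanned only 19.3 to 22.4 CPM and the 6 mature ones 31.6 to 40.8, with no overlap. Pre-basophils lay below BM mature basophils by a log2 fold change of -0.73 (SE 0.13, edgeR adjusted p 0.000806), and this was called in every alternative fit and without each library. Of the 7 tested voltage-gated potassium channel genes, the F test called Kcnq5 and Kcna3 alone, against 57.8% of all genes. No other gene of this family was called in a pairwise comparison. The summed level of all 13 genes of this family was 63.3 ± 6.97, 60.2 ± 8.24, 62.9 ± 4.51 and 65.4 ± 3.70 CPM from BaPs to mature spleen basophils, so the groups overlapped in the sum while these 2 genes were called in opposite directions. Neither of the 2 tested two-pore-domain genes was called by the F test, which called 57.8% of all genes.

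**Figure D3:**
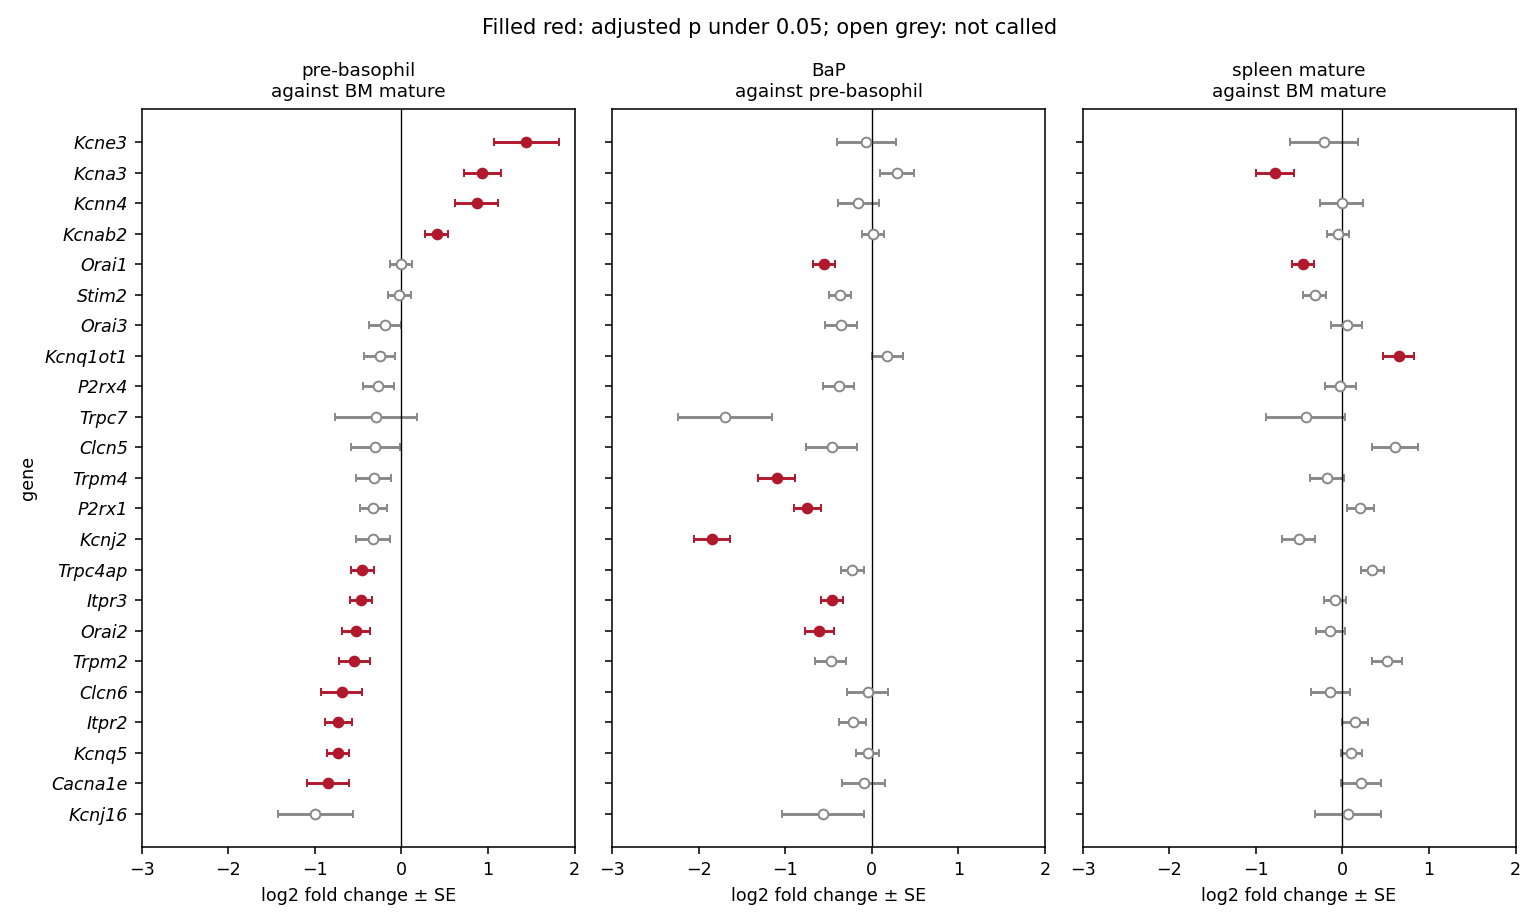
Log2 fold changes (x axes) with their standard errors for the 23 members called in a pairwise comparison or by the F test (y axis), in the 3 pairwise comparisons (panels); filled red points have an adjusted p under 0.05. In BaPs against pre-basophils all 6 called members lie below 0, with Kcnj2 at -1.85, and in pre-basophils against BM mature basophils Kcne3, Kcna3, Kcnn4 and Kcnab2 lie above 0.

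Of the 6 tested chloride channel and exchanger genes, the F test called 2, against 57.8% of all genes. The only pairwise call was 1 gene in pre-basophils against BM mature basophils, where 27.3% of all genes were called. Clcn6 (chromosome 4, 148004259 to 148038821), which encodes an exchanger of late endosomes, had 6.93, 4.48 and 7.55 CPM in BaPs, then 7.83, 6.57 and 5.76 in pre-basophils, 10.2, 10.8 and 11.2 in mature BM and 8.32, 9.90 and 11 in mature spleen basophils. Pre-basophils did not overlap BM mature basophils (log2 fold change -0.69, SE 0.24, edgeR adjusted p 0.0427). The Clcn6 call was lost without any 1 of these 6 libraries (0.0532 to 0.153) and in 4 of 9 alternative fits (0.0593 to 0.196). Clcn5, which encodes an endosomal exchanger, passed the F test only (edgeR adjusted p 0.00386), with 6.19 ± 1.68, 8.53 ± 2.09, 10.4 ± 1.51 and 15.8 ± 4.67 CPM from BaPs to mature spleen basophils. Clcn7, of lysosomes, had 6.65 ± 1.56, 8.65 ± 1.95, 7.42 ± 0.224 and 10.6 ± 1.69 CPM (F test 0.103). Clcn3 had 11.5, 12.5 and 43.3 CPM in BaPs, where the high value belonged to the library that stood apart, and 14.4 to 28.1 CPM in the other 9 libraries (F test 0.497).

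Voltage-gated calcium and sodium channel genes were low. Cacna1e (chromosome 1, 154390731 to 154884501), which encodes the pore of R-type calcium channels, had 4.54, 3.54 and 4.84 CPM in BaPs, then 3.35, 5.36 and 5.12 in pre-basophils, 7.96, 9.01 and 8.24 in mature BM and 11.2, 8.42 and 9.69 in mature spleen basophils. All early libraries lay below all mature ones (pre-basophils against BM mature basophils, log2 fold change -0.85, SE 0.25, edgeR adjusted p 0.0201). The call of Cacna1e was lost without pre-basophil replicate 1 (0.0851) or BM mature replicate 2 (0.0686), without the count filter (0.0701) and with unscaled library sizes (0.104). Of the 5 tested calcium channel genes the F test called Cacna1e alone, against 57.8% of all genes. It was also their only pairwise call, in pre-basophils against BM mature basophils, where 27.3% of all genes were called. None of the 6 sodium channel genes reached the filter, and together they had 3.47 ± 0.522, 3.49 ± 0.646, 4.57 ± 0.490 and 6.98 ± 1.09 CPM from BaPs to mature spleen basophils.

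The 29 untested members had at most 6.29 CPM in any library, and 14 of them had a library at 0. Several of them had their highest level in 1 library. Kcnip3 had 6.29 CPM in BaP replicate 3 and at most 0.955 in the other 11 libraries, and Trpc6 had 6.00 CPM there against at most 2.52 elsewhere. Kcnj8, Kcnk12 and Kcnk5 likewise had 3.68, 2.90 and 3.29 CPM in BaP replicate 3 and at most 1.16, 0.707 and 0.943 CPM elsewhere. This is the library with 522 CPM of T and NK cell markers and 938 CPM of erythroid markers, and the part of those cells in the levels of these 5 genes was not tested. These 5 untested genes were singled out after their values were seen.

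Trpc4ap and Kcnq1ot1, which encode no channel, are given apart. Trpc4ap (chromosome 2, 155634271 to 155692384), whose product was named for binding TRPC4 and which also serves in a ubiquitin ligase, had 50.4, 60.4 and 68.7 CPM in BaPs, then 68.5, 72.5 and 69.9 in pre-basophils, 86.9, 102 and 99 in mature BM and 117, 111 and 138 in mature spleen basophils. Pre-basophils lay below BM mature basophils without overlap (log2 fold change -0.45, SE 0.13, edgeR adjusted p 0.0227). That Trpc4ap call held only without BM mature replicate 1 (0.0246), was 0.0582 to 0.0902 without any other library of these groups, and was 0.344 with unscaled library sizes and 0.0620 with a likelihood ratio test after repeated TMM. Kcnq1ot1 (chromosome 7, 143203458 to 143296549), a long noncoding RNA transcribed antisense within Kcnq1, had the most counts of all members over the longest transcript, 93.1 kb. It had 119, 144 and 206 CPM in BaPs, then 121, 149 and 146 in pre-basophils, 174, 172 and 151 in mature BM and 236, 239 and 303 in mature spleen basophils. The spleen libraries lay above all others (against BM mature basophils, log2 fold change 0.65, SE 0.18, edgeR adjusted p 0.0411), and the Kcnq1ot1 call was lost without any 1 of these 6 libraries (0.0603 to 0.170). No source used here says whether the counting used strand, so reads of Kcnq1 and Kcnq1ot1 cannot be told apart.

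Within small families, the share of each gene per kilobase does not depend on the scaling of the libraries, but it does depend on the exon lengths used. It was taken as a description without a test. Among the ORAI genes, Orai1 held 49.3 ± 4.64% of the CPM per kb in BaPs, 49.6 ± 3.34% in pre-basophils, 42.4 ± 6.72% in mature BM and 36.2 ± 0.913% in mature spleen basophils, while Orai2 held 34.7 ± 4.62%, 36.4 ± 3.46%, 44.2 ± 5.57% and 47.5 ± 1.51%. Per kilobase, Orai1 was the larger in BaPs and pre-basophils and Orai2 in the spleen, and in BM mature basophils the ranges overlapped. In CPM, without this division, Orai2 lay above Orai1 in every library. The order of the shares thus rests on the exon lengths, 2.295 kb for Orai1 and 6.077 kb for Orai2. Among Trpm2, Trpm4 and Trpm7, the share of Trpm7 was 57.8 ± 7.0% in BaPs, 41.7 ± 4.17% in pre-basophils, 36.1 ± 1.98% in mature BM and 29.5 ± 5.55% in mature spleen basophils, and that of Trpm2 was 19.4 ± 1.63%, 20.7 ± 3.43%, 24.8 ± 3.12% and 36.0 ± 3.79%. The Trpm4 share was 22.8 ± 5.85% in BaPs and 34.5% to 39.1% in the later groups. The Itpr3 share stayed between 55.6% and 61.7%, whereas Itpr1 had 10.7 ± 1.24% in BaPs and 4.72 ± 1.26% in mature spleen basophils. P2rx1 had 57.2 ± 4.61% of the P2X level in BaPs and 70.0 ± 3.82% in mature spleen basophils, and P2rx7 14.9 ± 2.90% and 7.81 ± 1.10%. For the store sensors, Stim2 held 57.7% to 61.5% in all groups.

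**Figure D4:**
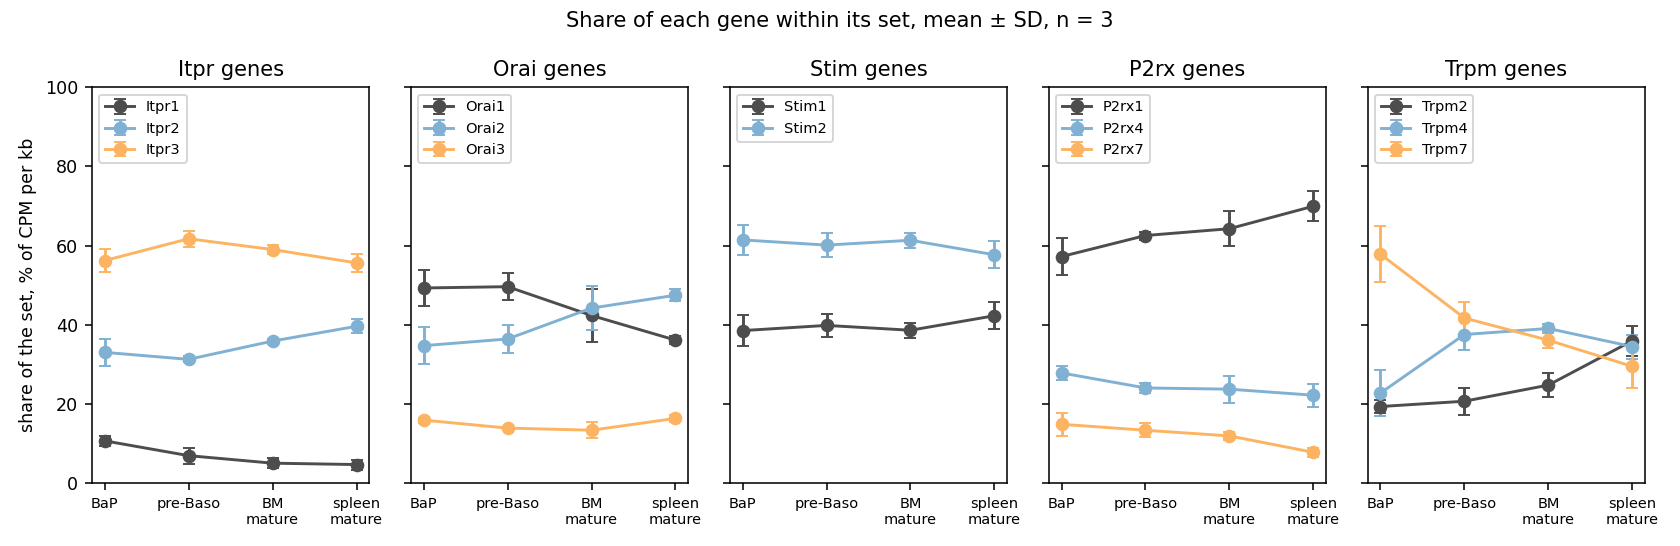
Share of each gene within its set in percent of CPM per kb of exon (y axis) in the 4 groups (x axis), mean ± SD (n = 3), for the IP3 receptor, ORAI, STIM, P2X and 3 TRPM genes. The Trpm7 share goes from 57.8% in BaPs to 29.5% in mature spleen basophils, and the Orai1 and Orai2 lines cross. That crossing rests on the division by exon length.

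A list of 75 other ion-handling genes was read beside the channels, of which 74 were in the table and 58 were tested. Pre-basophils against BM mature basophils gave 12 higher and 7 lower genes (32.8%, all genes 27.3%). The sodium pump subunit gene Atp1b2 had 3.20 ± 0.863 against 0.589 ± 0.353 CPM (log2 fold change 2.43, SE 0.60, edgeR adjusted p 0.00806), and the volume-regulated anion channel subunit gene Lrrc8b 4.24 ± 1.11 against 0.858 ± 0.195 CPM (2.27, SE 0.42, 0.00122). Both count among the 12 higher genes but passed the count filter only through the early groups. Atp1b2 had 7 counts and Lrrc8b 11 in the 3 BM mature libraries together, against 43 and 62 in pre-basophils. Their folds thus rest on few reads, and their calls give no support for higher levels in pre-basophils. Clic4 had 23.5 ± 4.32 against 8.53 ± 0.919 CPM (1.45, 0.000346), and the sodium-calcium exchanger gene Slc8a1 24.8 ± 1.51 against 10.9 ± 1.31 CPM (1.20, 0.00392). Of the 4 tested regulators of store-operated entry and the 6 genes of IP3 production, 1 each was lower in pre-basophils (all genes 11%) and none was higher (all genes 16.3%). These were Saraf (log2 fold change -0.60, edgeR adjusted p 0.00155), whose product slows store-operated entry, and the phospholipase gene Plcg1 (-0.86, 0.0119; 0.0671 with unscaled library sizes), both named after their values were seen. With unscaled library sizes the list gave 18 higher and 3 lower genes, 15 of them called with TMM as well. BaPs against pre-basophils gave 1 higher and 6 lower genes (12.1%, all genes 7.08%), or 5 higher and 4 lower with unscaled library sizes.

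Here the potassium-dependent sodium-calcium exchanger gene Slc24a3 had 20.1 ± 2.87 CPM in BaPs against 45.8 ± 4.33 in pre-basophils (log2 fold change -1.21, SE 0.14, edgeR adjusted p 0.000274). The sodium pump subunit gene Atp1b1 (153 ± 17.9 against 308 ± 24.5 CPM, -1.01, 0.000517) was lower in BaPs as well, and the plasma membrane calcium pump gene Atp2b4 was the 1 gene that was higher (46.5 ± 9.80 against 28.0 ± 2.06 CPM, 0.74, 0.0157). The Atp2b4 call was lost without pre-basophil replicate 1 (0.0662), 2 (0.0532) or 3 (0.0636) and in a fit of these 2 groups alone (0.0671). Spleen mature against BM mature basophils gave 3 higher and 6 lower genes (15.5%, all genes 7.83%), or 5 higher and 4 lower with unscaled library sizes. Clic4 was higher in the spleen (20.9 ± 2.38 CPM, log2 fold change 1.28, SE 0.22, edgeR adjusted p 0.00606). Lower in the spleen were the calmodulin gene Calm2 (249 ± 50.8 against 439 ± 98.0 CPM, -0.82, 0.0202) and Atp1b1 (231 ± 28.9 against 400 ± 23.5 CPM, -0.79, 0.00398). Calm2 lost its call without BM mature replicate 1 (0.0810) or 3 (0.0858) or spleen mature replicate 2 (0.0767).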

How the data were processed

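The deposited file gives, for each gene and library, the raw count of reads in 12 libraries, without normalization by the authors. The authors captured polyadenylated RNA from sorted cells, amplified the complementary DNA, sequenced fragmented libraries on an Illumina instrument, trimmed reads with Cutadapt 3.4, mapped them with Bowtie2 2.4.2 to reference transcripts and counted them per gene. The study's methods name GRCm38 and the sample labels GRCm39, so coordinates are those of the symbols in GENCODE M21 (GRCm38). The use of strand, the treatment of reads matching several genes and molecular identifiers are not given in the sources used here. Genes with near-identical copies are therefore uncertain, and counting limits cover counting error only.

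All 32227 genes were filtered with filterByExpr, scaled by TMM (factors 0.844 to 1.30) and fitted over 12 libraries in 1 quasi-likelihood model in edgeR 4.0.16 (R 4.3.3), with Benjamini-Hochberg adjustment over 15083 genes and a threshold of 0.05. The standard error is the log2 fold change over the root of its F statistic. CPM per kb used the summed exon length of a symbol. Pairs of libraries of a group differed by at least 4.16 in chi-square per degree of freedom (genes with 20 counts or more), so each was counted as 1 replicate. Same-numbered libraries deviated together in the bone marrow, with correlations of 0.165, 0.180 and 0.247 between pre-basophils and mature BM cells and of 0.252, 0.131 and 0.247 between BaPs and pre-basophils, and not between spleen and BM mature basophils (0.0223 to 0.0391), so the replicate number was used as a block in an alternative.

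Alternatives were other scalings, no count filter, DESeq2 1.42.0, limma-voom (limma 3.58.1), repeated TMM with a likelihood ratio test, each comparison's groups alone, and leaving out each library. The members, the lists and the rule for named genes were chosen with earlier results of these data known. The rule named every called member, a fixed roster of members, the 3 highest per kb, those near the limit of 30 counts, and the 4 other ion-handling genes with the largest called change in each comparison. A few genes that the rule named are not reported here.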

Additional observations from a re-analysis of the deposited data

How the results depend on the processing

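Of 30 named genes recomputed in 1348 values over the alternative fits and left-out libraries, no called value changed sign. Of 315 recomputed calls 94 were lost, and of 1033 values that were not called 17 gained a call, while 68 uncalled values changed sign. Kcnj2 in BaPs against pre-basophils and Kcna3 and Kcnq5 in pre-basophils against BM mature basophils were called throughout. Of 525 recomputed calls of 26 other ion-handling genes, 97 were lost, 18 calls were gained and none changed sign.

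For pre-basophils against BM mature basophils, 12 members were called, and 5 with unscaled library sizes (4 higher, 1 lower) and 15 in a fit of the 2 groups alone (4 higher, 11 lower), while leaving out 1 library gave 4 to 9. For BaPs against pre-basophils, 6 members were called, and 3 with unscaled library sizes, 11 without the count filter (4 higher, 7 lower) and 1 in a fit of the 2 groups alone, while leaving out 1 library gave 2 to 8. For spleen against BM mature basophils, 3 members were called, and 2 with unscaled library sizes (2 higher, 0 lower), 6 without the filter, 1 in limma-voom and 6 in a fit of the 2 groups alone, while leaving out 1 library gave 0 to 1. The F test called 23 members and 20 to 30 with 1 library left out. The causes were not tested.

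The summed member level moved by more than the replicate SD with unscaled library sizes in BaPs (1587 CPM), pre-basophils (1679 CPM) and BM mature basophils (1691 CPM), and with upper-quartile scaling in pre-basophils (1613 CPM). With the replicate number as a block, the counts of called members were 12, 6, 4 and 27 for the 3 comparisons and the F test, and no call of the 2 BM comparisons changed. In the third, Trpm2 gained a call (edgeR adjusted p 0.0345).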
